A study of Mus musculus with 12 samples.

Results

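Non-aggregate premalignant hepatocytes were compared with hepatocellular carcinoma (HCC), the malignant tumour of hepatocytes. The comparison holds 6 of the 12 Illumina bead arrays of the series, chosen by their cell type label alone: 3 arrays of cells labelled Non aggregate (premalignant) Hepatocytes and 3 of cells labelled fully malignant HCC. All 12 arrays carry total RNA of liver cells freshly isolated from male, age-matched B6 mice. Per the series' design text, HCC followed an injection of DEN (diethylnitrosamine), a carcinogen that hepatocytes activate. The other 6 arrays hold 3 samples of normal hepatocytes and 3 of aggregate premalignant cells, the counterpart of the non-aggregates. Dose, age in weeks, how aggregates were separated from non-aggregates, and whether the 3 arrays of a group are separate animals are not given in the sources used here. The p-values therefore measure the spread between these samples, which may be technical.

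The HCC and normal arrays lay on 1 chip and the non-aggregate and aggregate arrays on another. Chip and group cannot be told apart in the comparison of HCC with non-aggregates, and no chip term could be fitted. For this reason changes of HCC against normal hepatocytes, measured within 1 chip, are given beside those of the leading genes and beside groups whose balance differs there. Both comparisons use the same HCC arrays, so like values in both are not independent evidence. Non-aggregates against normal hepatocytes also spans the chips, and there 159 of 10641 genes (1.49%) were called. Aggregates against non-aggregates, within the other chip, gave 81 called genes (0.761%), all higher in aggregates. Same-numbered arrays of these groups deviated together, and with the replicate number as a block in their 6 arrays alone, a fit chosen after seeing the data, 489 genes were called, 447 higher and 42 lower.

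Carcinogen-injected livers pass through a long stage in which hepatocytes look near normal and scattered altered cells gain the ability to form tumours. Mature hepatocytes make plasma proteins, clear ammonia, break down amino acids and drugs, and make bile acids. HCC is known for the return of genes of the fetal liver, for the loss of part of this metabolism, and for the vessels, fibroblasts and immune cells that a tumour holds. In bulk RNA of this kind, fewer cells of a type and less RNA per cell cannot be told apart.

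HCC differed from non-aggregates in 4860 of 10641 genes (45.7%) at an adjusted p below 0.05 (limma with Benjamini-Hochberg adjustment over all genes). Of these, 2318 were higher in HCC (21.8% of the genes tested) and 2542 were lower (23.9%). In 5995 genes (56.3%) the 3 HCC arrays did not overlap the 3 non-aggregate arrays. HCC against normal hepatocytes gave 5218 called genes (49.0%). Larger changes lay more often on the side of HCC: of 2253 called genes with an absolute log2 change of at least 1, 1333 were higher and 920 lower, and of 222 with at least 3, 179 were higher and 43 lower. The balance of the calls moved with the scaling. Higher genes made up 47.7% of calls here, 65.3% after median scaling, 59.0% after cyclic loess and 60.4% in the deposited normalized values. The median log2 change of all genes was −0.09, 0.09, 0.03 and 0.03 in the same order, so changes of this size are within what the choice of scaling moves.

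More probes were detected in HCC, with a mean of 18781 ± 687 (SD, n = 3) of 45281, than in non-aggregates, with 16708 ± 322. Pearson's r across genes was 0.903 between the group means of HCC and non-aggregates. Within a group, array pairs had an r of at least 0.963 in HCC and 0.986 in non-aggregates, so the HCC arrays varied more among themselves. All levels below are log2 normalized intensities, listed in the order of replicates 1, 2 and 3. Changes are log2 HCC minus non-aggregate, with 3 arrays per group. Their standard errors (SE) come from the limma fit, which pools the spread over the arrays of all groups and moderates it across genes. They are therefore not the spread of the HCC and non-aggregate arrays alone. The groups of genes were drawn up with earlier results of these arrays known. Each is described by its counts and its median, with no test of the group. Counts are to be read against all genes, of which 45.7% were called, 21.8% higher and 23.9% lower. Genes counted as measured are those that passed the detection filter, at least 3 of 12 arrays. A member undetected in non-aggregates passed it through other arrays, so it could hardly be called lower in HCC. The share called was near or below 45.7% for kinase inhibitors, growth factors, plasma proteins, apolipoproteins, glutathione transferases, gluconeogenesis and glycolysis. The same held for lipid synthesis, cholesterol synthesis, interferon, clock, iron and housekeeping genes.

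The group of oncofetal and tumour marker genes had the highest median. Its members were chosen with earlier results of these arrays known, and Spink1, Ly6d, Slpi and Cd63 are also among the 12 largest rises. The rank and the median of this group therefore follow in part from the choice and are given as a description. Of 19 measured, 15 rose, 1 fell and 3 were not called, with a median change of 5.89 against −0.09 over all genes. Spink1, a secreted trypsin inhibitor, was at 13.24, 13.44 and 13.16 in HCC and at 5.19, 6.73 and 6.88 in non-aggregates. It rose by 7.02 (SE 0.61, adjusted p = 3.82e-06), and every HCC array lay far above every non-aggregate array. Ly6d, a small surface protein, was at 11.67, 11.79 and 12.16 in HCC against 4.59, 5.26 and 5.07, a rise of 6.90 (SE 0.21, adjusted p = 3.2e-09). Against normal hepatocytes the changes were 7.82 for Spink1 and, for Ly6d, which no normal array detected, a rise of at least 128-fold.

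Glypican 3 (Gpc3), a proteoglycan of fetal liver used as a tissue marker of HCC, was at 11.62, 11.17 and 13.43 in HCC and at 5.63, 6.47 and 5.87 in non-aggregates. Its rise was 6.08 (SE 0.49, adjusted p = 2.14e-06), or 5.41 without the third HCC array, where it was highest. Tspan8, a tetraspanin of the cell surface, was at 12.26, 12.57 and 11.52 against 5.28, 7.12 and 6.29, a rise of 5.89 (SE 0.43). Gpc3 and Tspan8 were detected on all 3 non-aggregate arrays and on none of the normal arrays. Non-aggregates against normal hepatocytes did not pass the test for either gene (adjusted p = 0.173 for Gpc3 and 0.0821 for Tspan8). HCC was at least 147-fold higher than normal hepatocytes for Gpc3 and at least 151-fold for Tspan8. In aggregates both were higher than in non-aggregates, by 2.64 (adjusted p = 0.0308) and 3.40 (adjusted p = 0.00352).

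Alpha-fetoprotein (Afp), the main plasma protein of the fetus, was at 10.02, 12.50 and 9.43 in HCC and at 4.27, 5.07 and 5.26 in non-aggregates. The rise of Afp was 5.78 (SE 0.65, adjusted p = 2.64e-05), but its size rested partly on single arrays: it was 4.86 without the second HCC array and 6.39 without the third. The casein gene Csn3, normally a milk protein, had the same shape, at 10.37, 13.10 and 9.55 in HCC and at 4.39, 5.22 and 4.21 in non-aggregates. It rose by 6.40 (SE 0.82), or by 5.36 and 7.13 without those same arrays. The second HCC array was the highest for both. It was also highest for Igf2, a fetal growth factor looked at after its values were seen, which stood at 6.41, 13.19 and 6.80 in HCC against 4.47, 5.05 and 4.49. No normal array detected Afp, Csn3 or Igf2, and HCC was at least 54.7-fold, 70-fold and 15.2-fold higher there. The change of Igf2 was 4.13 (adjusted p = 0.0208) and only 1.94 without the second HCC array, against 5.33 and 5.13 without the first and the third. Its call was lost without the first or the third non-aggregate array (adjusted p = 0.054 and 0.0538).

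The other large rises were in Slpi (6.68), a secreted protease inhibitor, Cd63 (6.54, SE 0.28), a tetraspanin of late endosomes, Igfbp1 (6.45, SE 0.39), a binding protein of insulin-like growth factors, and Lcn2 (6.38), a siderophore-binding protein. Esm1 (6.19), an endothelial secreted proteoglycan, the hydroxysteroid dehydrogenase gene Akr1c18 (6.07) and Gldn (5.89), known from nerve, followed. Their 3 HCC arrays did not overlap the 3 non-aggregate arrays. Against normal hepatocytes the changes were 6.43 for Slpi, 7.31 for Cd63, 3.55 for Igfbp1, 4.24 for Lcn2 and 6.76 for Esm1, while Akr1c18 and Gldn, undetected there, were at least 110-fold and 77.4-fold higher. Golm1, a Golgi membrane protein known as a serum marker of HCC, rose by 5.28 and Reln, a secreted matrix protein of stellate cells, by 5.11. Wfdc2 was the 1 gene of the group that fell, by 1.44 on the log2 scale (SE 0.35, adjusted p = 0.00541). The fetal RNA-binding protein gene Igf2bp3 was near the detection limit in every group, at 4.89, 4.57 and 4.87 in HCC and 5.03, 4.99 and 5.21 in non-aggregates, and was not called (−0.30, adjusted p = 0.128).

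**Figure D1:**
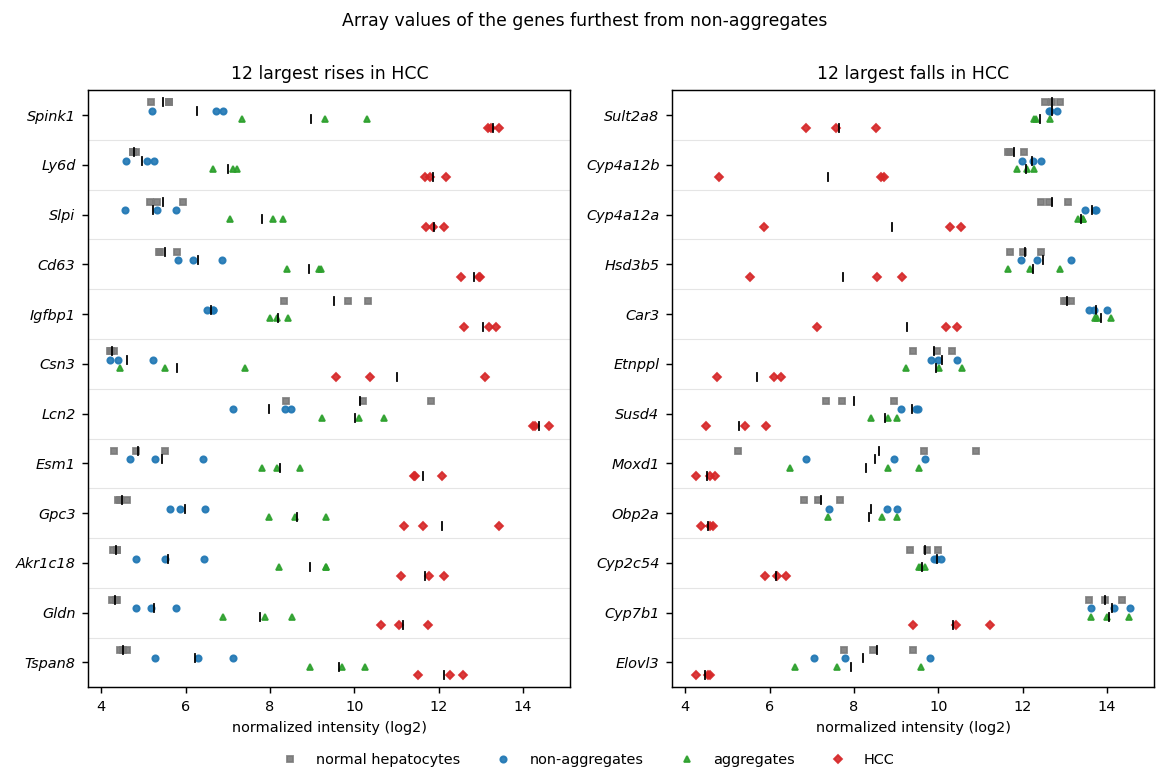
Log2 normalized intensity of the genes with the largest changes on each array, with HCC, non-aggregate, normal and aggregate arrays as separate points and black ticks at the group means. Spink1 was at 13.16 to 13.44 in HCC and at 5.19 to 6.88 in non-aggregates, and Sult2a8 showed the reverse order, at 6.85 to 8.52 against 12.63 to 12.81.

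Genes linked to hepatic progenitor cells were also raised. Of 20 on the array, 13 passed the detection filter, and of these 11 rose and 0 fell. The median change was 2.31, and as low as 1.05 under other settings. It was 2.02 when genes that no non-aggregate array detected were put at their bound, the least fold that the detection limit allows. Igdcc4, a surface receptor of the immunoglobulin family, was at 9.93, 10.49 and 11.02 in HCC against 4.43, 4.80 and 4.65 on its brightest probe, a rise of 5.85 (SE 0.32). The other kept probes of Igdcc4 were at only 1.22 and 0.33. Tnfrsf12a, the receptor of the cytokine TWEAK, rose by 4.17, Icam1, an adhesion molecule, by 3.02, and the surface protein gene Alcam by 2.72. Sox9, a transcription factor of bile duct and progenitor cells, was at 9.56, 9.92 and 11.41 against 8.54, 7.35 and 7.48, a rise of 2.51 (SE 0.46, adjusted p = 0.000894). Cd44, a hyaluronan receptor, was much dimmer, at 5.53, 6.06 and 6.14 against 4.92, 4.61 and 4.81, and rose by 1.13 (SE 0.27, adjusted p = 0.00479). Against normal hepatocytes Igdcc4 was at least 48.6-fold higher on its brightest probe, Sox9 rose by 1.81, and Cd44 was at 0.68 and not called (adjusted p = 0.0532). The bile duct and progenitor markers Epcam and Krt19 and the cytokine gene Il6 were detected on 0 of 12 arrays and were not tested.

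Cell division genes were split between the HCC arrays. Of 52 on the array, 35 passed the detection filter. Ccna2, Ccnb2, Bub1 and Cenpf were detected on 0 of 12 arrays, and Tpx2 and Ect2 on 2 HCC arrays each. They were not tested, nor was the panel gene Mki67. Of the 35 genes, 17 rose and 4 fell, with a median of 0.81 (0.66 at the bounds). This median was as low as 0.25 under other settings. The median offset of these genes from the non-aggregate mean was 0.93 and 1.18 on the first and second HCC arrays and 0.07 on the third. Without the third HCC array 22 rose and 4 fell and the median was 1.18. Ccnd1, the cyclin that starts the cell cycle, was at 11.31, 11.01 and 10.75 against 7.96, 8.15 and 8.17, and its rise of 2.93 (SE 0.26) was carried by all 3 HCC arrays. Prc1, a protein of the dividing spindle, was at 8.09, 8.69 and 7.07 against 4.44, 5.08 and 4.71, a rise of 3.21 (SE 0.33). Uhrf1, which maintains DNA methylation, rose by 2.82 and the mitotic regulator Cdc20 by 2.37, or by 3.04 without the third HCC array. The replication genes Mcm10 and Tk1 went the other way. Mcm10 was at 9.72, 10.03 and 8.05 against 11.81, 11.89 and 12.40, and fell by 2.77 (SE 0.41), or by 2.16 without the third HCC array. Tk1, thymidine kinase, fell by 1.64 (SE 0.36, adjusted p = 0.00299), and was at −0.77 against normal hepatocytes (adjusted p = 0.0973).

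Of 28 cyclin-dependent kinase inhibitors and p53 targets, 11 rose, 2 fell and 15 were not called, with a median of 0.28 (0.17 at the bounds). The share called, 46.4%, was near the 45.7% of all genes, but a few inhibitors of the cell cycle had large rises. Cdkn2b, which encodes the inhibitor p15, was at 10.56, 9.36 and 11.44 in HCC and was detected on 0 of 3 non-aggregate arrays, so it was at least 51.5-fold higher (adjusted p = 3.89e-07). Its neighbour Cdkn2a was at 7.14, 6.20 and 8.59, likewise undetected in non-aggregates, and was at least 5.84-fold higher (adjusted p = 0.00011). Without the third HCC array, the highest for both, the fitted change of Cdkn2a was 2.41 in place of 3.05. Phlda3, a p53 target that restrains AKT, was at least 8.88-fold higher. Cdkn1a, the p53 target p21, was at 8.89, 9.20 and 9.45 against 5.84, 5.36 and 5.37, a rise of 3.66 (SE 0.33). Against normal hepatocytes, which held more of it than non-aggregates, the rise of Cdkn1a was 1.22.

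Of 30 growth factor and receptor genes, 10 rose and 5 fell, near the share of all genes called. Igfbp5, a binding protein of insulin-like growth factors, fell by 2.06 on the log2 scale (adjusted p = 0.0186), but its groups overlap, its call was lost without the first or the third HCC array or the second or the third non-aggregate array, and it was at 0.36 against normal hepatocytes. Without the first non-aggregate array its change was −2.85. The growth hormone receptor gene Ghr was at 11.19, 10.18 and 11.07 against 12.74, 12.78 and 12.76, a change of −1.95 (SE 0.23). The hormone it controls in liver, Igf1, changed by −1.56 (SE 0.25), and Igfals, the carrier of IGF1 in blood, by −2.06 (SE 0.28). Igfbp1, Igfbp7 (2.74) and Grb10 (2.30), an adaptor that dampens insulin signals, rose, as did the EGF receptor ligand betacellulin, Btc (2.16, SE 0.19). Of 14 YAP target genes, 8 rose and 2 fell, with a median of 0.83 (0.65 at the bounds). Ccn2, a matrix protein and standard YAP target, was at 10.46, 11.43 and 9.88 against 4.78, 6.34 and 6.43, a rise of 4.74 (SE 0.51). The ectonucleotidase gene Nt5e rose by 4.06 and the receptor kinase gene Axl by 2.89.

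Among genes of cell shape and contact, rises outnumbered falls. Of 21 keratin, tubulin and actin cytoskeleton genes, 16 rose, 0 fell and 5 were not called (median 1.67), and of 22 adhesion and junction genes, 13 rose, 1 fell and 8 were not called (median 0.66). Anxa2, a membrane-binding annexin, was at 12.86, 12.69 and 12.76 against 6.74, 7.70 and 6.85, a rise of 5.67 (SE 0.29, adjusted p = 9.53e-08). S100a11, a calcium-binding partner of annexins, rose by 4.41 (SE 0.31). The hepatocyte keratins Krt8 (1.31, SE 0.13) and Krt18 (1.97, SE 0.22) rose with low spread: Krt8 was at 12.77, 12.69 and 12.95 against 11.54, 11.55 and 11.38. The actin-binding thymosin Tmsb10 rose by 4.03 and the tubulin gene Tubb6 by 3.61. Cdh1, E-cadherin, was at 10.94, 10.70 and 11.37 against 8.78, 6.84 and 7.96, and its change of 3.14 (SE 0.50) was upward, as was that of the integrin gene Itga3 (3.44). Of 16 annexin and S100 genes, 9 rose and 2 fell (median 0.85, or 0.61 at the bounds).

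**Figure D2:**
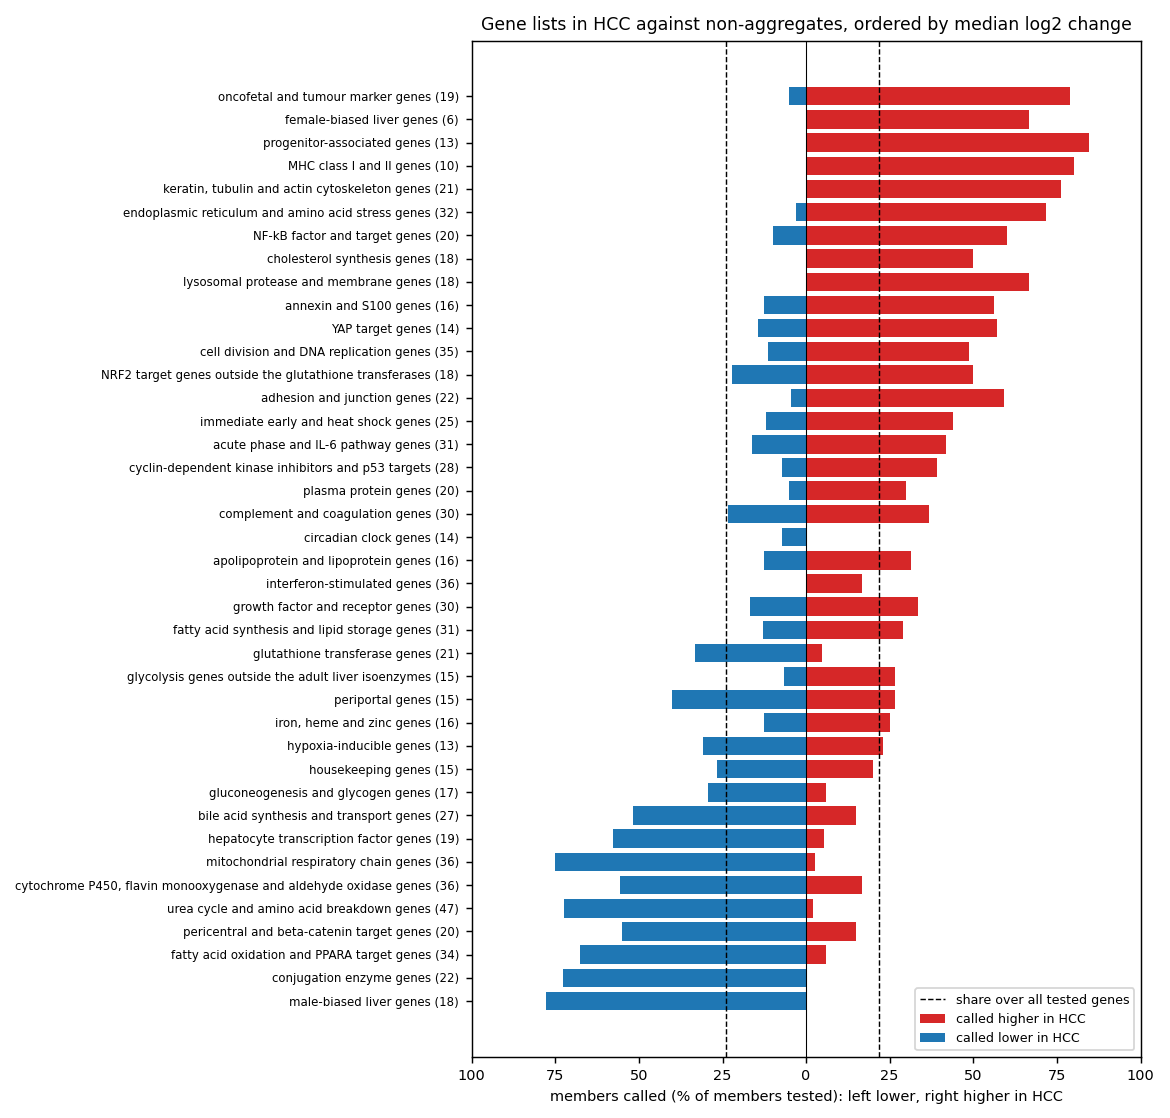
Percent of the tested members of each group called higher (right) or lower (left) in HCC than in non-aggregates. The 40 groups other than cell type markers are shown, ordered by median log2 change. Dashed lines mark the shares over all tested genes. The tumour marker group has the highest median, 5.89, and the male-biased group the lowest, −2.77.

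On the falling side, genes that male mouse liver expresses more than female liver had the lowest median. Of 18 measured, 14 fell and 0 rose, with a median of −2.77. Hsd3b5, a steroid dehydrogenase, was at 8.55, 9.13 and 5.55 in HCC and at 13.14, 11.96 and 12.34 in non-aggregates, a change of −4.74 (SE 0.72, adjusted p = 0.000241). The third HCC array was lowest, and without it the change of Hsd3b5 was −3.64, against −5.43 without the second. The fatty acid hydroxylase genes Cyp4a12a and Cyp4a12b, whose probes may read each other's RNA, changed by −4.74 and −4.84, or by −3.23 and −3.55 without that array and by −5.43 to −5.56 without the first or the second. Against normal hepatocytes the changes were −4.31, −3.80 and −4.42 for Hsd3b5, Cyp4a12a and Cyp4a12b. Elovl3, a fatty acid elongase, was at 9.81, 7.78 and 7.06 in non-aggregates and was detected on 0 of 3 HCC arrays, at least 12.2-fold lower (adjusted p = 0.00164). Its fitted change was −3.75, or −2.95 without the first non-aggregate array. Outside this group, the carbonic anhydrase gene Car3 was at 10.18, 10.44 and 7.13 against 13.56, 13.99 and 13.68, a change of −4.50. It was −3.43 and −5.09 without the third and the second HCC array. The lipocalin gene Obp2a changed by −3.86. Car3 was at −3.80, Obp2a at −2.68 and Elovl3 at a fitted −4.07 against normal hepatocytes.

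Cyp7b1, an oxysterol hydroxylase, changed by −3.76 (SE 0.41) and Susd4, a complement regulator, by −4.10 (SE 0.41). Their changes against normal hepatocytes were −3.61 and −2.73. Nox4, an oxidase that makes hydrogen peroxide, changed by −2.93, the peroxisomal hydrolase gene Nudt7 by −2.89 and the urinary protein gene Mup21, whose probe may read copies, by −2.64. Moxd1 changed by −3.98 (SE 1.23, adjusted p = 0.0193), but its non-aggregate arrays spread widely, at 9.67, 6.87 and 8.95, and the call was lost without the third HCC array (adjusted p = 0.0517), the first non-aggregate array (adjusted p = 0.0721) or the third non-aggregate array (adjusted p = 0.057). Without the second non-aggregate array the change was −4.80. Moxd1 was at −4.09 against normal hepatocytes. Of 12 female-biased genes on the array, 6 passed the detection filter, and of these 4 rose and 0 fell. Their median was 2.37, and as low as 0.28 under other settings. The peroxisomal transporter gene Abcd2 was at 8.64, 7.76 and 9.99 against 4.98, 5.48 and 4.71, a rise of 3.74 (SE 0.46), or 3.14 without the third HCC array. Cdkn3, a phosphatase gene also tied to cell division, rose by 3.15. All mice were male.

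Enzymes of drug metabolism followed the same direction in larger number. Of 36 cytochrome P450, flavin monooxygenase and aldehyde oxidase genes, 20 fell and 6 rose, with a median of −0.97. Cyp2c54, whose probe may read relatives of the Cyp2c family, was at 6.18, 6.38 and 5.90 against 9.95, 9.91 and 10.07, a change of −3.82 (SE 0.18, adjusted p = 6.8e-08) and of −3.53 against normal hepatocytes. Cyp2b10, the standard target of the receptor CAR, changed by −3.54 (SE 0.20) and was detected on 1 of 3 HCC arrays. Cyp2f2, a periportal enzyme, changed by −3.42, or by −2.75 without the third HCC array, and the aldehyde oxidase gene Aox3 by −3.02. Cyp2e1, the pericentral enzyme that activates DEN, was among the brightest probes in both groups, at 13.79, 14.37 and 14.34 against 15.33, 15.36 and 15.32, and changed by −1.17 (SE 0.16, adjusted p = 0.000105).

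The P450 genes that rose included relatives that female liver expresses more. Cyp2b9 was at 12.71, 12.21 and 12.19 in HCC and at 6.98, 8.91 and 7.85 in non-aggregates, a rise of 4.45 (SE 0.65). Cyp2a4 was at 13.12, 13.15 and 13.20 against 7.87, 10.24 and 9.99, a rise of 3.79 (SE 0.57), or 3.04 without the first non-aggregate array. Cyp2b13 rose by 3.10 (SE 0.74), or by 2.31 and 3.80 without the first and the second non-aggregate array, and the flavin monooxygenase gene Fmo4 by 2.00. The probes of the Cyp2a and Cyp2b genes may read near-identical copies. Cyp2a4 was already higher in non-aggregates than in normal hepatocytes, by 3.46 (adjusted p = 0.0142), and its change from normal hepatocytes to HCC was 7.25.

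Of 22 conjugation enzyme genes, 16 fell and 0 rose, with a median of −1.80. Sult2a8, a sulphotransferase of bile acids, was the largest named fall: it was at 8.52, 7.57 and 6.85 against 12.81, 12.63 and 12.64, a change of −5.04 (SE 0.31, adjusted p = 3.42e-07) and of −5.05 against normal hepatocytes. Ugt3a1, a glycosyltransferase, changed by −3.35 and Sult5a1 by −3.21. Glutathione transferases showed no common direction. Of 21 measured, 7 fell and 1 rose with a median of −0.03, but without the third HCC array 6 fell and 7 rose, and the median became 0.35; its sign also turned under 8 other settings, median scaling and cyclic loess among them. The offset of these genes was 0.45 and 0.34 on the first and second HCC arrays and −1.12 on the third. Of 18 other targets of NRF2, the regulator of antioxidant genes, 9 rose and 4 fell, with a median of 0.69. The exporter gene Abcc4 was at 8.92, 11.40 and 9.20 against 5.08, 5.63 and 5.68, a rise of 4.38 (SE 0.55), or 3.60 without the second HCC array. Srxn1, which repairs oxidised peroxiredoxins, rose by 2.20 (SE 0.40), and Me1, malic enzyme, fell by 1.67 (SE 0.41).

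**Figure D3:**
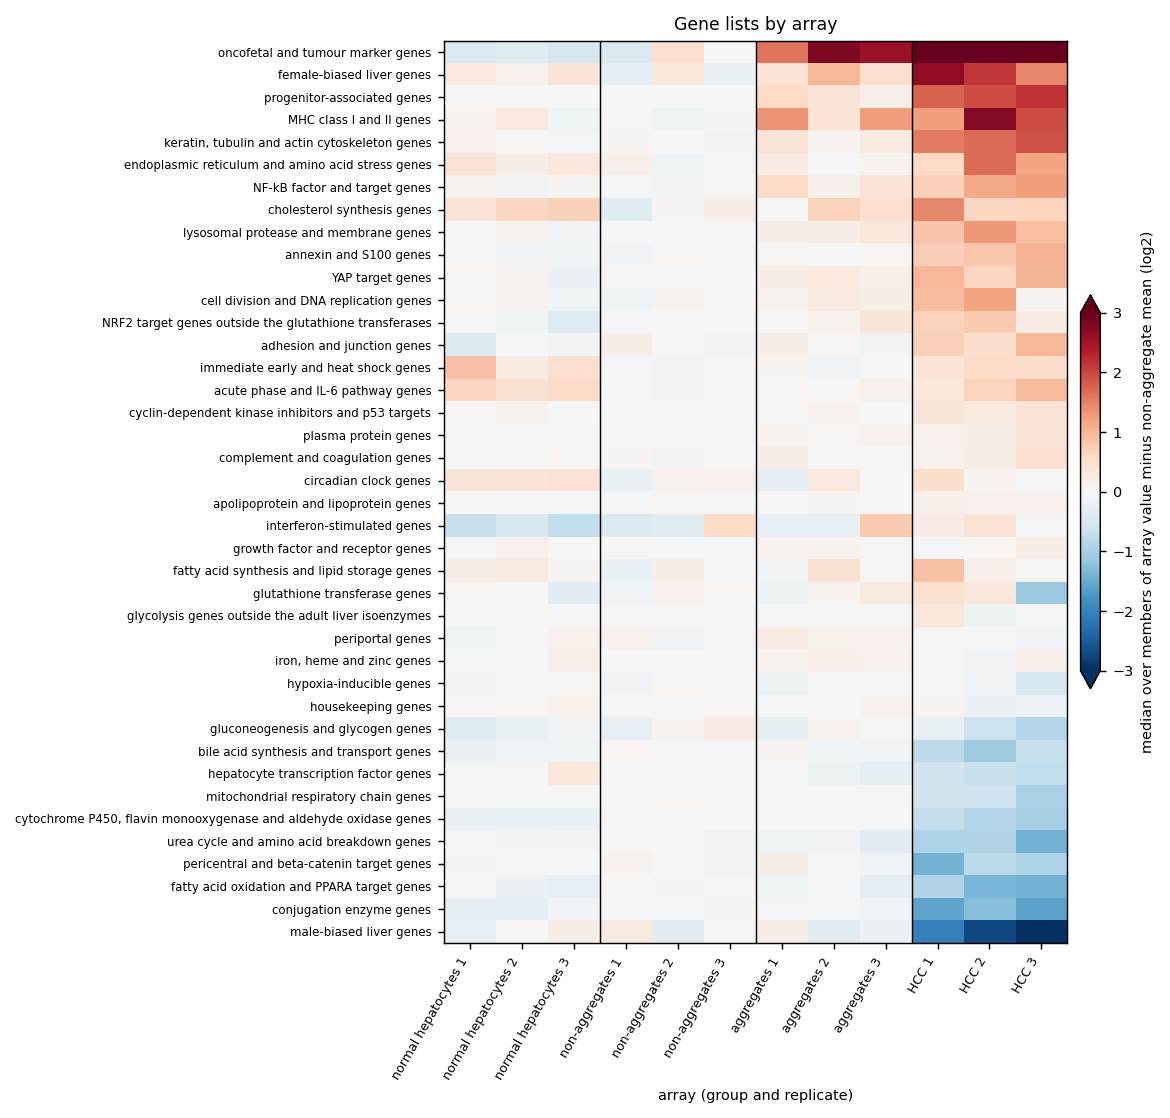
Median offset of each group of genes from the non-aggregate mean, in log2 units, on every array. The third HCC array departs from the other HCC arrays for cell division genes (0.07 against 0.93 and 1.18) and glutathione transferases (−1.12 against 0.45 and 0.34), while male-biased genes were low on all 3 (−2.06, −2.72 and −3.20).

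Amino acid breakdown fell broadly. Of 47 urea cycle and amino acid genes, 34 fell and 1 rose, with a median of −0.97, against 23.9% of all genes that fell. Prodh, which starts proline breakdown, was at 7.93, 8.48 and 7.73 against 11.02, 11.47 and 11.42, a change of −3.26 (SE 0.21, adjusted p = 3.65e-07) and of −2.95 against normal hepatocytes. Etnppl, a phosphoethanolamine lyase, changed by −4.38 (SE 0.42), and by −4.19 against normal hepatocytes. Hpd, of tyrosine breakdown, changed by −2.82 (SE 0.23). The urea cycle gene Otc was at 6.86, 6.07 and 7.53 against 9.41, 9.24 and 9.36, a change of −2.52 (SE 0.27), and Asl changed by −2.23 (SE 0.24). Cth, which makes cysteine, changed by −2.66. Of 17 genes of gluconeogenesis and glycogen, 5 fell and 1 rose, with a median of −0.57, while without the first HCC array 8 fell. The glucose-6-phosphatase gene G6pc was at 9.19, 10.38 and 8.89 against 12.68, 12.51 and 12.63, a change of −3.12 (SE 0.36). Pck1, the enzyme that commits carbon to glucose, was at 7.17, 8.95 and 5.80 against 10.56, 10.65 and 11.07 and changed by −3.45 (SE 0.63), or by −2.70 and −4.27 without the third and the second HCC array. Pkm, the pyruvate kinase of fetal and tumour cells, was at 8.18, 7.67 and 8.21, was undetected in non-aggregates and was at least 9.55-fold higher (adjusted p = 1.39e-07). Of the 15 glycolysis genes outside the adult liver isoenzymes, 4 rose and 1 fell, but 4 fell without the first HCC array, 2 rose without the second, 1 rose without the second non-aggregate array, and 0 fell when any 1 array other than the first HCC array was left out. The sign of their median, −0.03, turned under 11 settings.

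Fatty acid oxidation and the respiratory chain were lower too. Of 34 genes of fatty acid oxidation and PPARA targets, 23 fell and 2 rose, with a median of −1.23. Acot1, a thioesterase, was at 7.61, 7.57 and 7.38 against 10.60, 11.36 and 10.46, a change of −3.28 (SE 0.29), and Decr1 and Ehhadh, of mitochondrial and peroxisomal oxidation, changed by −2.14 and −1.88. The hormone gene Fgf21 went the other way, at 8.95, 8.95 and 9.0 against 5.50, 5.49 and 5.76, a rise of 3.39 (SE 0.36). Of 36 subunits of the respiratory chain, 27 fell and 1 rose, but the changes were small, with a median of −0.71. Ndufb3, of complex I, was at 9.42, 9.47 and 8.86 against 10.71, 10.67 and 10.53, a change of −1.39 (SE 0.16). Sdhb, of complex II, changed by −1.22 (SE 0.23), and Uqcrq, of complex III, rose by 0.70 (SE 0.19) and was at 0.31 against normal hepatocytes (adjusted p = 0.209).

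Lipid synthesis and storage did not follow. Of 31 genes, 9 rose and 4 fell (41.9% called, against 45.7% of all genes), with a median of 0.07. Lpl, lipoprotein lipase, which adult liver hardly makes, was at 12.15, 12.79 and 13.22 against 7.90, 7.81 and 7.31, a rise of 5.04 (SE 0.50) and of 4.98 against normal hepatocytes. Pnpla3, a lipid droplet protein, was at 8.34, 9.01 and 8.38, was detected on 1 of 3 non-aggregate arrays and rose by 4.07 (SE 0.37), and the desaturase gene Scd2 rose by 2.89. Fabp5, a fatty acid carrier, was at least 8.28-fold higher. Plin5, a droplet protein of oxidising cells, changed by −2.23 (SE 0.25).

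Genes of cholesterol synthesis were called in 1 direction. Of 18 genes, 9 were higher and 0 lower (50% called, against 45.7% of all genes), with a median of 0.90. Against normal hepatocytes 8 were higher and 2 lower, with a median of 0.46. Squalene epoxidase, Sqle, was at 13.20, 12.76 and 12.28 in HCC, 8.67, 9.17 and 10.14 in non-aggregates and 10.21, 11.21 and 11.28 in normal hepatocytes. Its rise was 3.42 (SE 0.43) against non-aggregates and 1.85 against normal hepatocytes. Lss and Dhcr7, later enzymes of the pathway, both rose by 2.65, and Mvd by 2.10. Of 27 genes of bile acid synthesis and transport, the main route of cholesterol out of the liver, 14 fell and 4 rose, with a median of −0.64; without the second or the third non-aggregate array 2 rose. The sterol hydroxylase gene Cyp8b1 changed by −3.58 (SE 0.64), or by −2.68 and −4.20 without the third and the second HCC array. The uptake carriers Slco1a4 (−2.93, SE 0.15), Slco1b2 (−2.37, SE 0.27) and Slc10a1 (−1.91, SE 0.20) fell with little spread. Cyp7a1, the rate-limiting enzyme of bile acid synthesis, was at 9.49, 8.67 and 8.42 in HCC and at 9.47, 12.72 and 12.19 in non-aggregates. These groups overlap, and its change of −2.60 (adjusted p = 0.0343) lost the call without the second HCC array (adjusted p = 0.0818), the third (adjusted p = 0.0932), the second non-aggregate array (adjusted p = 0.135) or the third (adjusted p = 0.108). It was −3.60 without the first non-aggregate array and −1.97 without the second, and −0.98 against normal hepatocytes (adjusted p = 0.392).

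Plasma protein genes were mostly not called and transcription factor genes more often fell. Of 20 plasma protein genes, 6 rose and 1 fell (35% called, against 45.7% of all genes), with a median of 0.26. Albumin, Alb, was at 10.42, 10.47 and 10.68 against 8.67, 9.0 and 9.15, a rise of 1.58 (SE 0.19). Its probe was dim beside other plasma protein genes. The non-aggregate mean was 8.94 for Alb, 11.10 for Afm, 12.66 for Itih2 and 14.27 for Ces1c. How well this probe reads Alb was not tested. Of 16 apolipoprotein and lipoprotein genes, 5 rose and 2 fell (43.8% called), with a median of 0.14. Apoa4, a lipoprotein component of gut and liver, was at 15.14, 14.80 and 14.04 against 10.44, 10.90 and 9.89, a rise of 4.25 (SE 0.47), and Apom rose by 1.58 (SE 0.22). Of 19 hepatocyte transcription factor genes, 11 fell and 1 rose, with a median of −0.69. Onecut2 was at 8.38, 8.19 and 7.98 against 10.40, 10.34 and 10.25, a change of −2.15 (SE 0.20). Nr1i3, the drug receptor CAR, changed by −1.79 (SE 0.26) and Nr1h4, the bile acid receptor FXR, by −1.40 (SE 0.23). Bcl6, a repressor that favours the male pattern in mouse liver, changed by −2.87 (SE 0.78), or by −2.18 without the first non-aggregate array, and was at −1.89 against normal hepatocytes (adjusted p = 0.0617). Foxa3, a forkhead factor of liver, rose by 0.93 (SE 0.25) and was at 0.01 against normal hepatocytes. Hnf4a, the central factor of hepatocyte identity, was at 11.84, 11.55 and 11.84 against 11.85, 11.33 and 11.90 and was not called (0.05, SE 0.20, adjusted p = 0.856); its sign turned without the second non-aggregate array (−0.13) and after median scaling. Against normal hepatocytes Hnf4a changed by −0.61 (adjusted p = 0.0235).

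Zonal genes of the central vein fell more often than they rose. Of 20 pericentral and beta-catenin target genes, 11 fell and 3 rose, with a median of −1.11. Glutamine synthetase, Glul, was at 5.46, 6.10 and 5.44 against 6.99, 7.14 and 7.50 and changed by −1.54 (SE 0.21, adjusted p = 0.000124). Oat, an ornithine aminotransferase of the same zone, changed by −2.52 (SE 0.33), Rgn by −2.63 and Axin2, a feedback target of beta-catenin, by −1.14 (adjusted p = 0.023). Axin2 was dim, and its call was lost without the first or the third HCC array or the first or the second non-aggregate array (adjusted p = 0.0506 to 0.098). Against normal hepatocytes it was at −0.86 (adjusted p = 0.0699). The neutral amino acid carrier Slc1a4 rose, at 9.12, 9.32 and 9.59 against 5.57, 5.10 and 4.52 (4.28, SE 0.31). Of 15 periportal genes, 6 fell and 4 rose, and 2 rose without the second or the third HCC array or the second or the third non-aggregate array. The sign of their median, −0.04, turned under cyclic loess and with each chip normalized by itself.

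Genes of stress in the endoplasmic reticulum (ER), where secreted proteins fold, and of amino acid shortage rose as a group: 23 of 32 were higher and 1 lower, with a median of 1.12. Against normal hepatocytes 14 were higher and 3 lower, with a median of 0.73. The factors ATF6 and XBP1 act on such genes through the ER stress response element (ERSE), CCAAT and CCACG with any 9 bases between. This motif, chosen after the values were seen, was searched on both strands in the 250 bases before each gene's start (RefSeq, GRCm38.p6). The motif was found in 37 of 32851 promoters (0.113%). It was also in 8 of the 32 group members with a promoter sequence: Calr, Canx, Creld2, Dnajc3, Hsp90b1, Hspa5, Pdia6 and Syvn1. Because the group was drawn up as ER stress genes, its share with the motif follows in part from that choice and is a description. Of the 8 genes with the motif, 7 were tested and 6 rose, beside 23 of 32 in the whole group. Dnajc3 was not called (0.44, adjusted p = 0.0725, or 0.0281 without the first HCC array). The promoters of 5 of the 6 are shown on the gene's strand, 5′ to 3′, so that the element can be compared between them. Capitals mark its fixed letters, which read in reverse complement for Calr and Creld2.
Hspa5, chr2:34771995-34772074, plus strand: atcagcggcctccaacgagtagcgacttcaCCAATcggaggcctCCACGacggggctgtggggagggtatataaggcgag
Hsp90b1, chr10:86705607-86705686, minus strand: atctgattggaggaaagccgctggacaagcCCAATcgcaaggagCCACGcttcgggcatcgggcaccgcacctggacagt
Pdia6, chr12:17266461-17266540, plus strand: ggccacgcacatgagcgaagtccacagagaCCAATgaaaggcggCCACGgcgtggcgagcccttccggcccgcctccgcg
Calr, chr8:84847044-84847123, minus strand: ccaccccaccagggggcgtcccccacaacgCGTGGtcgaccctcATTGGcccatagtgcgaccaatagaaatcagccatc
Creld2, chr15:88819490-88819569, plus strand: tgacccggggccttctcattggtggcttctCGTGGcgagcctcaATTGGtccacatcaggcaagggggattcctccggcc

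Hspa5, the chaperone BiP, was at 10.08, 11.55 and 10.76 in HCC and at 9.06, 8.35 and 8.62 in non-aggregates, a rise of 2.12 (SE 0.36, adjusted p = 0.000557). Pdia6, a disulphide isomerase, was at 10.50, 11.19 and 10.14 against 8.71, 8.37 and 8.48 and rose by 2.09 (SE 0.25). The chaperones Calr (1.21, SE 0.29) and Hsp90b1 (0.83, SE 0.20) rose less. Creld2, at 10.98, 13.34 and 11.28 against 9.73, 8.85 and 9.51, rose by 2.51 (SE 0.48), or by 1.77 without the second HCC array. Normal hepatocytes lay between the groups for some of these genes: Creld2 was at 11.17, 10.87 and 11.43 there, and its change from normal hepatocytes to HCC, 0.71, was not called (adjusted p = 0.242). The corresponding change was 1.07 for Hspa5 (adjusted p = 0.0283) and 1.74 for Pdia6.

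The arm of the group that answers amino acid shortage had the largest members. Psat1, of serine synthesis, was at 9.52, 9.94 and 9.19 against 4.77, 5.05 and 4.62, a rise of 4.74 (SE 0.28, adjusted p = 2.26e-07), and 4.61 against normal hepatocytes. Trib3, a pseudokinase induced by ATF4, was at 10.74, 11.73 and 10.44 against 8.28, 6.85 and 7.20, a rise of 3.52 (SE 0.51). Nupr1, a stress protein of chromatin, was at 6.12, 8.98 and 7.82 and undetected in non-aggregates, at least 7.35-fold higher. Its fitted change of 3.16 became 2.49 without the second HCC array and 3.92 without the first. Asns, asparagine synthetase, was called (1.70, adjusted p = 0.0436) although its first HCC array, at 8.45, lay within the non-aggregate range of 7.87 to 9.13. The call of Asns was lost without the second or the third HCC array or the second or the third non-aggregate array (adjusted p = 0.0985 to 0.162), and its change was 2.55 without the first HCC array. It was at 0.99 against normal hepatocytes (adjusted p = 0.213). Shmt2, of mitochondrial folate metabolism, was the 1 member that fell (−1.0, SE 0.24).

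Inflammatory genes gave a mixed picture. Of 31 acute phase and IL-6 pathway genes, 13 rose and 5 fell, with a median of 0.48, and the number that fell ran from 2 to 8 when single arrays were left out: 8 without the third HCC array, 3 without either other HCC array, and 2 without the first or the third non-aggregate array. Against normal hepatocytes the balance was the other way, with 9 higher, 13 lower and a median of −0.04. Lcn2 was at 14.23, 14.27 and 14.60 against 7.12, 8.49 and 8.35. Il1rn, the interleukin 1 receptor antagonist, rose by 3.66 (SE 0.34), the receptor gene Osmr by 3.13 (SE 0.44) and the pentraxin gene Apcs by 2.48. Hamp, the iron hormone hepcidin, changed by −1.93, or by −1.32 without the first HCC array, and the serum amyloid gene Saa3 by −1.64. Of 20 NF-kB factor and target genes, 12 rose and 2 fell, with a median of 0.93 (0.87 at the bounds). Cd40, at 8.19, 9.75 and 8.87 on its brightest probe, was undetected there in non-aggregates and at least 18-fold higher. The fitted rise of that probe was 4.34, and the other kept probes of Cd40 rose by 3.01 and 1.08. The adhesion gene Vcam1 rose by 4.12 (SE 0.47). The inhibitor gene Nfkbia, itself an NF-kB target, changed by −1.16 (SE 0.24). Of 25 immediate early and heat shock genes, 11 rose and 3 fell, but 6 or 7 rose without the second or the third HCC array or the second or the third non-aggregate array. Against normal hepatocytes 4 were higher and 7 lower, with a median of 0.01. Ier3 was at 8.76, 9.29 and 9.80 against 4.58, 5.30 and 5.12, a rise of 4.28 (SE 0.43), and Egr1 rose by 3.57, or by 4.33 without the first non-aggregate array. Against normal hepatocytes Ier3 rose by 3.22, and Egr1 was at 1.78 and not called (adjusted p = 0.0633). The phosphatase gene Dusp1 changed by −1.88 and the small heat shock gene Hspb1 by −1.26.

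Complement and coagulation genes went both ways: of 30 measured, 11 rose and 7 fell, with a median of 0.25. Without the third HCC array or the second non-aggregate array 7 rose, and without the first non-aggregate array 4 fell. Of 13 hypoxia-inducible genes, 3 rose and 4 fell, and without the first HCC array 1 rose and 5 fell. Of 16 iron, heme and zinc genes, 4 rose and 2 fell. The medians of both groups, −0.06 and −0.04, turned sign under other scalings. Of 14 circadian clock genes, 0 rose and 1 fell, and of 15 housekeeping genes, 3 rose and 4 fell, with a median of −0.08 that turned under cyclic loess.

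MHC class II genes, which professional antigen-presenting cells express, had the largest rises among the MHC genes. Of 10 class I and II genes, 8 rose and 0 fell, with a median of 1.99 (1.79 at the bounds). H2-Aa was at 8.48, 10.21 and 10.30 against 5.46, 5.07 and 5.29, a rise of 4.39 (SE 0.47), and the invariant chain gene Cd74 rose by 4.27 (SE 0.49). Without the first HCC array, the lowest for both, the rises were 4.98 and 4.89. The class I genes H2-D1 (1.05) and H2-T23 (0.90) rose by less, the latter losing its call without the second HCC array or the first or the second non-aggregate array (adjusted p = 0.0578 to 0.079), and B2m (0.10) and H2-K1 (0.36) were not called. Macrophage markers moved with these genes: their summed linear intensity was 10241 to 16471 in HCC and 1161 to 3398 in non-aggregates, and their part in the result was not tested.

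Interferon-stimulated genes differed among the non-aggregate arrays. Of 36 measured, 6 rose and 0 fell, with a median of 0.14. Against normal hepatocytes 13 were higher and 0 lower, with a median of 1.08. The third non-aggregate array was the highest of the 3 for 35 of the 36 genes, and for 23 it lay above every HCC array. The third aggregate array stood apart in the same way, with a median offset of 0.78 from the non-aggregate mean against −0.24 and −0.25 on the other aggregate arrays. Without the third non-aggregate array 9 rose and the median was 0.51. Without the first or the second non-aggregate array 3 rose, and without the second the median was −0.02. Tap1, a peptide transporter for MHC class I, was at 6.89, 7.48 and 7.10 against 5.70, 5.65 and 6.60 and rose by 1.17 (SE 0.27, adjusted p = 0.00386). Isg15, a ubiquitin-like interferon target looked at after its values were seen, was at 7.02, 6.94 and 9.65 on the non-aggregate arrays.

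Markers of other liver cell types set the 2 groups of arrays apart. Of 20 liver endothelial markers, 19 rose and 0 fell (median 2.29), and their summed linear intensity was 12654 to 18844 in HCC and 3131 to 4083 in non-aggregates. Of 18 stellate cell and fibroblast markers, 15 rose and 0 fell (median 1.65, or 1.32 at the bounds), with sums of 10084 to 21452 against 929 to 1467. Of 16 monocyte and macrophage markers, 14 rose and 0 fell (median 2.23). In non-aggregates 9 of the stellate and fibroblast markers, 3 of the endothelial and 2 of the macrophage markers were undetected on all 3 arrays. These markers passed the detection filter through other groups and could hardly be called lower in HCC. Their part in the counts therefore follows from the filter. Acta2, the smooth muscle actin of activated stellate cells, was at 9.11, 10.60 and 9.24 on its brightest probe. That probe was undetected in non-aggregates and at least 29.5-fold higher in HCC, with a fitted rise of 5.24. The other kept probes of Acta2 rose by only 2.70, 1.30 and 1.17. The matrix genes Sparc and Col4a1 rose by 4.43 and 4.18, and the endothelial junction gene Pecam1 was at 7.70, 8.69 and 8.43 against 5.53, 5.40 and 5.64 (2.74, SE 0.28).

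Cd14, a monocyte receptor, was at 9.02, 10.10 and 10.46 against 5.07, 4.74 and 4.74, a rise of 5.01 (SE 0.36). Markers of the resident Kupffer cell did not move with it. Of 8 measured, 1 rose, 1 fell and 6 were not called; their sum was 1193 to 1606 in HCC and 2140 to 3310 in non-aggregates. Most of the non-aggregate sum was C6, a complement gene that the male-biased group also holds and the 1 marker that fell (−1.87); without it the sum was 613 to 990 in HCC and 254 to 577 in non-aggregates. The sign of the median of all 8, −0.04, turned under 8 settings. Clec4f, the defining Kupffer marker, was at 6.76, 7.22 and 5.93 against 5.59, 5.60 and 6.88 and was not called (0.61, adjusted p = 0.36), while Adgre1, shared by other macrophages, rose by 2.60. Of 18 lysosomal protease and membrane genes, which macrophages also express, 12 rose and 0 fell (median 0.86), Lgmn by 3.07 and Hexa by 2.28. The macrophage, endothelial and fibroblast sums moved with the lysosomal, cytoskeletal, NF-kB and MHC genes and with Reln, Esm1, Icam1 and Vcam1, and their part in these results was not tested.

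Hepatocyte markers were bright in both groups, with a sum of 146221 to 165078 in HCC and 173796 to 181560 in non-aggregates. Of 9 hepatocyte markers, 2 rose and 3 fell, with a median of 0.03. The haemoglobin genes, whose probes may read copies, were uneven between the HCC arrays: Hba-a1 was at 7.61, 11.05 and 12 in HCC and at 5.68, 5.08 and 6.27 in non-aggregates, a rise of 4.55, or 5.85 without the first HCC array and 3.66 without the third. Alas2, the heme synthesis enzyme of red cell precursors, went against them, at 8.62, 8.13 and 7.01 against 11.30, 11.33 and 10.77 (−3.21, SE 0.33). Of 13 T and NK cell markers on the array, 5 passed the detection filter and 3 of these were called. Ccl5 and Cd3g were undetected in non-aggregates and at least 6.52-fold and 1.28-fold higher, and Cd8b1 (0.50) lost its call without any 1 array other than the first HCC array (adjusted p = 0.0601 to 0.133). Of 8 bile duct markers on the array, 2 passed the detection filter, Sox9 and Bicc1, and both rose. Krt7, Krt19, Epcam, Cftr and Cldn4 were detected on 0 HCC arrays and Pkhd1 on 1. The 1 B cell and the 1 mesothelial marker measured were not called, and 1 of 2 neutrophil markers rose.

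**Figure D4:**
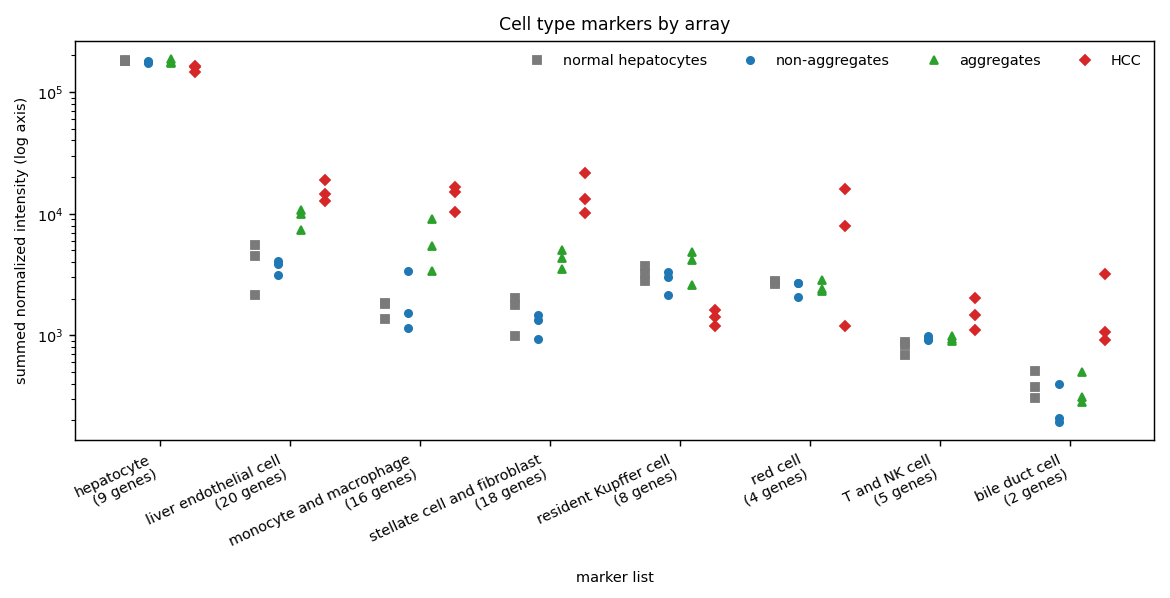
Summed linear normalized intensity of the markers of each cell type on every array. Endothelial sums were 12654 to 18844 in HCC and 3131 to 4083 in non-aggregates, while the aggregate arrays lay between, at 7291 to 10672; hepatocyte sums differed far less.

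The starting level in non-aggregates differed from normal hepatocytes for a small set of genes. Because these genes were chosen by that difference, the gap between their changes against the 2 kinds of hepatocyte follows from the choice and is given as a description. Of 960 genes in the groups described, 18 were called between non-aggregates and normal hepatocytes, 15 lower and 3 higher in non-aggregates, beside 1.49% of all genes; this comparison too spans the chips. The metallothionein gene Mt1, a metal-binding stress protein, was at 14.38, 14.30 and 14.12 in HCC, at 10.43, 11.82 and 13.59 in non-aggregates and at 15.48, 15.46 and 15.49 in normal hepatocytes. It was higher in HCC than in non-aggregates by 2.32 (SE 0.69, adjusted p = 0.0159), by 3.14 without the third non-aggregate array and by 1.56, with the call lost (adjusted p = 0.067), without the first, while against normal hepatocytes it was at −1.21 and not called (adjusted p = 0.164). Igfbp1 was at 6.65, 6.51 and 6.65 in non-aggregates and at 9.86, 10.33 and 8.34 in normal hepatocytes, so its rise in HCC was 6.45 against the former and 3.55 against the latter. Cyp51, of cholesterol synthesis, rose by 1.98 and 0.66 in the same order. The cytokine gene Cxcl1 rose by 2.18 against non-aggregates (adjusted p = 0.00581) and was at −0.69 against normal hepatocytes (adjusted p = 0.309).

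**Figure D5:**
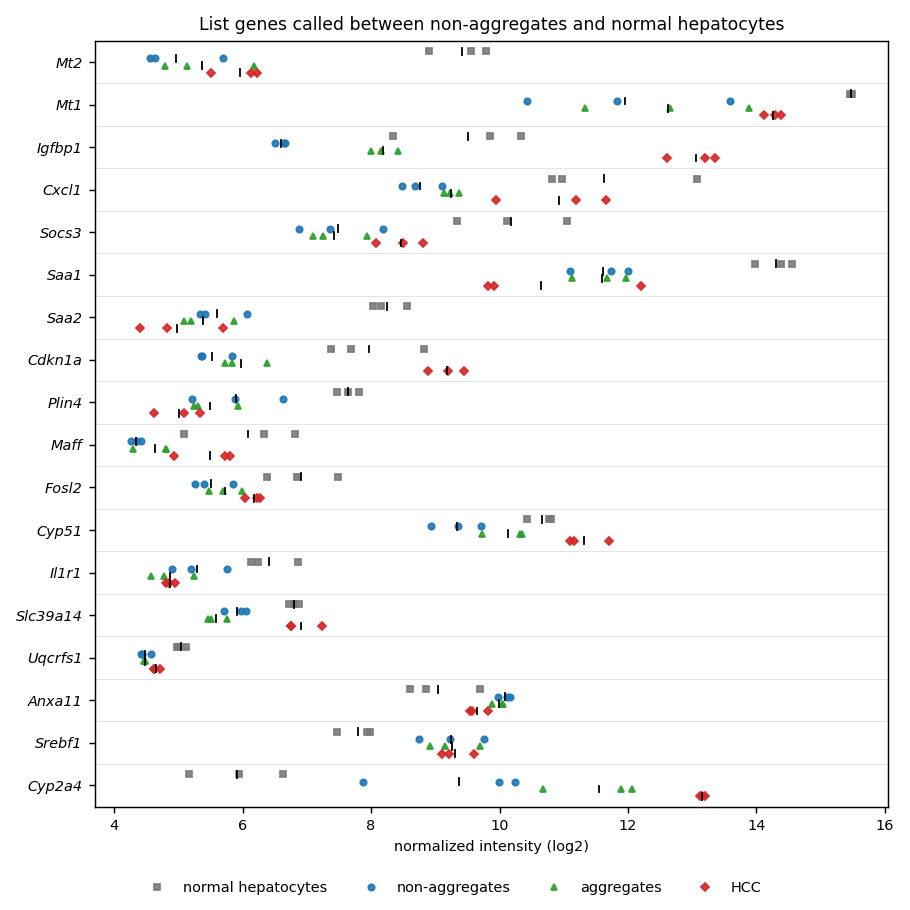
Log2 normalized intensity on each normal, non-aggregate, aggregate and HCC array for the genes of the groups called between non-aggregates and normal hepatocytes. Black ticks mark the group means. The genes were chosen by the difference between non-aggregates and normal hepatocytes. Mt1 had a mean of 15.48 in normal hepatocytes, 11.95 in non-aggregates and 14.27 in HCC.

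The acute phase genes Saa1 and Saa2, whose probes may read each other, were lower in non-aggregates than in normal hepatocytes (log2 changes −2.69 and −2.64), and their changes from non-aggregates to HCC, −0.97 and −0.63, were not called. Without the third HCC array, where both were highest, these were −1.75 (adjusted p = 0.000869) and −1.0 (adjusted p = 0.0177). Socs3, a feedback inhibitor of cytokine signals, showed −2.70 between normal hepatocytes and non-aggregates and 0.98 from there to HCC (adjusted p = 0.0753), or 1.34 without the second non-aggregate array (adjusted p = 0.031). Of the 18 genes, 9 were also called between HCC and non-aggregates, near the 45.7% of all genes. The count of 159 genes fell to 54, 20 and 50 when the first, the second or the third non-aggregate array was left out.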

How the data were processed

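Total RNA of 12 samples was labelled with biotin and hybridised to Illumina arrays, as the labels' protocols record. The deposited table holds the authors' average bead intensity per probe and array on a linear scale, with a lowest value above 0 on every array, and a deposited detection p-value per probe, per the file headers. Intensities that the authors normalized were also deposited; no source used here names the method, so they were only an alternative.

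Intensities were corrected with normexp from the detection p-values (offset 16), quantile normalized over 12 arrays and taken to log2 from the deposited intensities (neqc, limma 3.58.1, R 4.3.3). Of 45281 probes, 19670 were kept because at least 3 of 12 arrays gave a detection p under 0.05. Gene names came from the platform annotation, updated through RefSeq: 34885 probes had 1 gene, 18 several and 10378 are not listed there. The brightest probe stood for each gene, and other kept probes of the same gene could change far less. Other probes gave −0.50 for Cyp2b10, 0.04 for Lss and 0.73 for Il1rn, for example. In 44 of 4134 genes with several probes, called probes disagreed in direction. Each of 10641 genes was fitted in limma (lmFit, eBayes, 2-sided) with 1 mean per group over all 12 arrays and Benjamini-Hochberg adjustment, a call being an adjusted p below 0.05. A gene undetected on all arrays of the lower group has a bound, "at least N-fold": the brighter group's mean against, per dim array, the higher of the lowest detected value and the gene's own value. The smallest p of an exact test of 3 arrays against 3 is 0.1, so single genes rest on limma. The number of arrays limits the precision.

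Named genes are the 12 largest rises and 12 largest falls among calls without overlap, leaving out predicted genes and clones, a panel of 16 genes, and from each list at most 4 called members, by size of change, plus at most 2 that went against them. Another 41 genes (such as Igf2, Mt1, Hspa5, Ghr and Otc) were named after their values were seen. The 51 lists (40 of pathways, 11 of cell markers; 1229 entries, 1132 on the array, 980 tested), their members and the named-gene rule were chosen with earlier results of these data known. Marker sums are linear. Aggregate and non-aggregate arrays of the same number deviated together from their group means (r = 0.706, 0.541 and 0.638 across genes). These numbers were therefore used as a block in 1 fit. The labels do not say what the same-numbered arrays share, and this was not tested. Promoters were searched and figures drawn with Python 3.11.15 and matplotlib 3.10.9. Alternatives were other background, scaling and filter settings, the mean over probes, array weights, the 6 arrays alone, a fold threshold, the replicate block and leaving out each array.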

Additional observations from a re-analysis of the deposited data

How the results depend on the processing

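Of the 4860 calls between HCC and non-aggregates, 2253 had an absolute log2 change of at least 1 (2408 of 5218 against normal hepatocytes). The count ran from 3945 to 4956 without single arrays and from 4204 to 4921 under the other settings: 4204 with only the 6 arrays in the fit, 4399 with array weights and 4360 with median scaling. With the replicate number as a block it was 4855. Deviations of same-numbered HCC and non-aggregate arrays correlated at −0.079, 0.050 and −0.0085, so they showed no pairing by number. Those of HCC and normal arrays correlated at −0.011, 0.12 and 0.10 and of non-aggregate and normal arrays at −0.087, −0.052 and 0.039. The block gave 5195 for HCC and 150 for non-aggregates against normal hepatocytes. For HCC against normal hepatocytes, leaving out arrays gave 4716 to 5204. Calls between aggregates and non-aggregates (81) were less stable. They were 26 without background correction, 27 without a detection filter, 40 in the deposited normalized values and 53 with the mean over probes. With the replicate block they were 54 over 12 arrays and 489 over the 6 arrays of these groups alone. The count was 153 after cyclic loess, 215 after median scaling, 379 with array weights, and 16 to 142 without single arrays. Calls between non-aggregates and normal hepatocytes (159) became 516 with array weights, 88 at the fold threshold and 20 to 198 without single arrays. The cause was not tested. Of 263 called genes among 273 named, 227 kept the call under every setting but the fold threshold; 52 of the 273 moved by over 1.5 times without 1 array and 31 lost the call. Hnf4a, not called, turned to −0.015 after median scaling and ran from −0.13 to 0.15 without single arrays, and Dock5, a YAP target at −0.71, turned to 0.072 with the mean over probes.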
